A study of Mus musculus with 24 samples.

Results

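The genes described are 10 transporters that carry bile salts, bilirubin conjugates, phospholipid and drugs across the membranes of the hepatocyte. They were taken by symbol from 24411 genes counted in 24 mouse liver libraries, and every one passed the filter on low counts in each comparison. The canalicular transporters, in the membrane that lines the bile canaliculus, are *Abcb11*, *Abcc2*, *Abcb4*, *Abcb1a* and *Abcg2*. The basolateral efflux transporters, which return compounds to blood, are *Abcc3* and *Abcc4*, and the uptake transporters are *Slc10a1*, *Slco1a1* and *Slco1b2*.

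Libraries were made from whole liver of male mice aged 2.5 months, fasted overnight, in which *E2f7* and *E2f8* carried loxP sites in all groups. LKO mice (Alb-Cre Tg/0, *E2f7/E2f8* loxP/loxP, R26R mTmG/mTmG, a mixed and mostly FVB background) lacked both genes in the liver lineage throughout life, since the albumin promoter drives Cre from development onward, and control littermates had no Cre (Alb-Cre 0/0). LKO livers are known to be rich in diploid hepatocytes, while most hepatocytes of control livers are polyploid. HKO mice received AAV8-TBG-Cre at 2 months, which deletes both genes in hepatocytes of adult liver through the hepatocyte promoter TBG, and their controls received AAV8-TBG-Null. The paper shows the R26R mTmG reporter in livers of both virus groups as well, and does not state their background. At 0 h, without acetaminophen (APAP), single mice were sequenced (4 control, 4 LKO, 3 AAV8-TBG-Null and 3 HKO). At 12, 24, 48, 72 and 96 h after 300 mg/kg APAP there was 1 library per genotype, pooled from 3 control or 3 LKO mice, and no HKO library was analysed after APAP.

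Bile forms because pumps of the ATP-binding cassette (ABC) family move bile salts and other solutes into the canaliculus, and water follows. Slc10a1 and transporters of the Slco family take bile salts and other organic anions up from portal blood, and Abcc3 and Abcc4 in the basolateral membrane let them leave again when canalicular export fails. In liver, the bile acid receptor encoded by *Nr1h4* (FXR) is known to activate *Abcb11*, and NRF2, encoded by *Nfe2l2*, is known to activate *Abcc2*, *Abcc3* and *Abcc4*. Conjugates of APAP leave the hepatocyte through Abcc2 and Abcg2 into bile and through Abcc3 and Abcc4 into blood.

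Reads on genes ranged from 12665686 to 19499897 per library, and 3 counts corresponded to 0.154 to 0.237 CPM (counts per 1e6 reads on genes), a limit that covers counting error only. *Abcc4* (14 to 148 counts) and *Abcb1a* (27 to 269 counts) were the low members. The deleted genes could not be used to check the genotypes, because the counts cover whole genes, including exons outside the deleted part. *E2f8* was at 16.4 ± 3.21 CPM in control and 25.4 ± 7.06 CPM in LKO mice (SD, n = 4), and at 19.4 ± 5.76 CPM in AAV8-TBG-Null and 54.5 ± 26.0 CPM in HKO mice (SD, n = 3). *E2f7* had 2 to 22 counts in each mouse at 0 h. All directions given for a genotype therefore follow the labels. Markers of hepatocytes were abundant in every group, as 6 of the 7 on the list were found and none of these was at 0 throughout a group. Their summed level was 65670 to 111600 CPM in control and 45620 to 86760 CPM in LKO mice at 0 h, and 92080 to 133400 CPM in the control and 64980 to 96140 CPM in the LKO pools.

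Promoters of the members whose RNA moved most are shown because they can be set beside the changes described further on. RefSeq sequences on GRCm38.p6 from 250 bases before to 50 bases after a transcription start were held for 9 of the 10 genes, in 13 entries, and each is written 5′ to 3′ on the strand of its gene. Capitals mark a match, on either strand, to the core of the antioxidant response element of NRF2 (TGACNNNGC), to a STAT5 site (TTCNNNGAA) or to the first bases of an HNF1 site (GTTAATNAT). The search also covered the core of the inverted repeat bound by FXR (GGTCANTGA). The promoter of *Abcc4* lies at chr14:118706170-118706469, minus strand, that of *Slco1b2* at chr6:141629268-141629567, plus strand, that of *Slco1a1* at chr6:141946913-141947212, minus strand and that of *Abcb11* at chr2:69342567-69342866, minus strand.
Abcc4: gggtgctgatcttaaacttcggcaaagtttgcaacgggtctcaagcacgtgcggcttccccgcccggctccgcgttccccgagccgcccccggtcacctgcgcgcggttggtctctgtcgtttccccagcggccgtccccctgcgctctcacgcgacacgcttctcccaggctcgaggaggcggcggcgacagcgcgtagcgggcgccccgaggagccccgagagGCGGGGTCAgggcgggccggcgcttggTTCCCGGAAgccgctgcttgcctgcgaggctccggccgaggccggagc
Slco1b2: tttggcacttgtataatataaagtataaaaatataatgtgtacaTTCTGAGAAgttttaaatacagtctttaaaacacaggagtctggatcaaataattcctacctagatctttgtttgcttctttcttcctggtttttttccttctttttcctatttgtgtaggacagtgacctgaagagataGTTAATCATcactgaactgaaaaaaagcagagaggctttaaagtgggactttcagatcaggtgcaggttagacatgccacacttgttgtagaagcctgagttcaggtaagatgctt
Slco1a1: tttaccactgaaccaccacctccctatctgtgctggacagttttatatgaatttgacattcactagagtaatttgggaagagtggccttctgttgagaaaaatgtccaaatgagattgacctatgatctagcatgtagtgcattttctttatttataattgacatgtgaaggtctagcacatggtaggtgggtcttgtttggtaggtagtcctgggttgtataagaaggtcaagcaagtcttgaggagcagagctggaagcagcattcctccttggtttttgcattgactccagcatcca
Abcb11: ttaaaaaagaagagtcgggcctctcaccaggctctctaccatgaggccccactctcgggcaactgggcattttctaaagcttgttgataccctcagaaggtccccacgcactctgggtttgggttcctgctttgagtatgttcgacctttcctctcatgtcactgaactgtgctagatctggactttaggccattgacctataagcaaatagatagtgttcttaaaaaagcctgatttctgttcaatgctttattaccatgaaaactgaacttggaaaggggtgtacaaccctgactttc

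The *Abcc4* promoter held the antioxidant response core, which begins 25 bases before the start, and a STAT5 site. The antioxidant response core was also found in the other promoter entry of *Abcc4* and in those of *Abcc2* and *Abcb1a*, which makes 4 of 13 entries. The entry of *Abcb1a* starts at chr5:8566841, far upstream of the start of the gene in GENCODE vM21 (chr5:8660077). Over all genes, 12.4% of 32851 promoters of this length hold the core. The *Slco1b2* promoter held a STAT5 site and the HNF1 bases, which occur in 8.30% and 0.801% of promoters. Besides *Abcc4* and *Slco1b2*, a STAT5 site was found in 1 entry of *Slc10a1*. The letters of the FXR core were in none of the 13 entries and in 0.840% of all promoters, and the promoters of *Slco1a1* and *Abcb11* held none of the motifs searched. A match is a description of the sequence and does not show that a factor binds there.

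At 0 h, levels per length ordered the genes over a wide range. Expressed as RPKM (CPM divided by exon length in kilobases), with exon lengths from GENCODE vM21 on GRCm38, the 8 mice of the LKO cohort had 214 ± 29.7 for *Slc10a1*, the sodium-dependent bile salt importer, 205 ± 31.6 for *Slco1b2*, which takes up bilirubin, bile salts and drugs, and 101 ± 12.5 for *Abcb11*, the bile salt export pump (mean ± SD, n = 8). The next were *Slco1a1*, an organic anion importer (74.4 ± 22.9), *Abcc3*, which exports glucuronides to blood (68.3 ± 33.5), *Abcc2*, which exports bilirubin and glutathione conjugates to bile (49.6 ± 7.67), and *Abcb4*, the phosphatidylcholine flippase (35.0 ± 2.85). *Abcg2*, which exports sulfated compounds and urate, was at 12.1 ± 3.36 RPKM, *Abcb1a*, a P-glycoprotein that exports drugs, at 1.08 ± 0.643 RPKM and *Abcc4*, an exporter of bile salts and cyclic nucleotides, at 0.383 ± 0.0962 RPKM. Neighbours in this order overlapped in their ranges, apart from *Slco1b2* and *Abcb11*, *Abcb4* and *Abcg2*, and *Abcg2* and *Abcb1a*. Whole liver was sequenced, so fewer cells that express a gene and less RNA per cell cannot be told apart in any result.

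To ask how the transporters responded to APAP, each time point was compared with 0 h over the 18 libraries of the LKO cohort, with genotype as a term in the fit, so that a change shared by both genotypes was tested. Calls required 1.5-fold or more and a Benjamini-Hochberg adjusted p below 0.05. At 12 h, 3 members were lower and 1 was higher, where 14.3% of all genes tested were called lower and 16.7% higher. At 24 h, 6 were lower and 1 was higher, against 11.7% and 13.9% of all genes. At 48 h, 5 were lower and 1 was higher, against 6.52% and 9.89%. At 72 h and at 96 h, 1 member was lower and 0 were higher, where 5.77% and 0.13% of all genes were called lower and 11% and 0.332% higher. DESeq2 called 4, 7, 7, 1 and 1 members at these times, and 32.5, 27.1, 18.5, 18.5 and 2.44% of all genes. The median log2 fold change over the 10 genes was −1.09 at 24 h and −0.87 at 48 h, while that of all genes was 0.00 at both. *Abcb1a*, *Abcg2* and *Abcc3* were called at no time. Where 1 of the pools of a time point was left out, the pool that remained was assumed to vary like the other libraries.

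**Figure D1:**
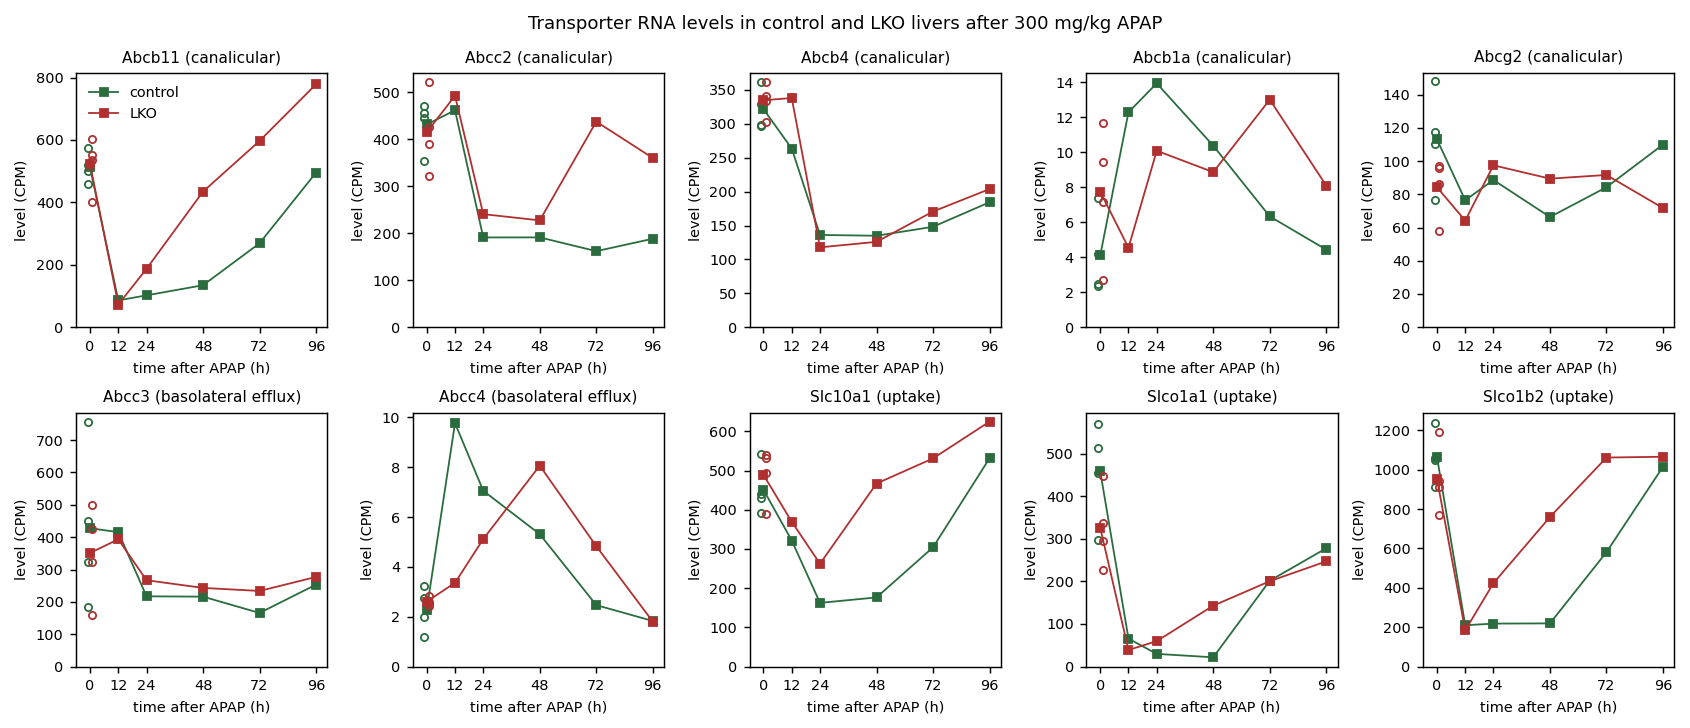
Level of each transporter in CPM (vertical axis, from 0) against hours after APAP in control (green) and LKO (red) livers, with open circles for the 4 single mice per genotype at 0 h, and squares for their mean and for the pools of 3 mice. *Abcb11*, *Slco1a1* and *Slco1b2* reach 12 to 20% of their 0 h mean at 12 h in both genotypes, and the LKO pools lie above the control pools for all 3 at 48 h.

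*Abcb11* (chr2:69238282-69342616, minus strand) was far lower at 12 h in both genotypes. Control mice at 0 h had 500.3, 574, 519 and 459 CPM, and the control pools had 86.1, 102, 135, 269 and 496 CPM from 12 to 96 h. LKO mice at 0 h had 602, 551, 401 and 535 CPM, and the LKO pools had 72.8, 187, 435, 597 and 779 CPM. Control pools lay below all 8 mice from 12 to 72 h and LKO pools at 12 and 24 h, and the LKO pool at 96 h lay above them. In GENCODE vM21, 136 and 19 of its exon bases overlap those of 2 genes on the other strand, which the counts do not separate. The change was called at 12 h (log2 fold change −2.66, SE 0.36, adjusted p = 5.69e-05), at 24 h (log2 fold change −1.91, SE 0.34, adjusted p = 0.000776) and at 48 h (log2 fold change −0.98, SE 0.32, adjusted p = 0.0421). The call at 48 h was the least firm, since it was lost in 14 of 28 other settings. Without the control pool at 48 h it was lost (log2 fold change −0.42, adjusted p = 0.547), and leaving out any control mouse, LKO mouse 1, or 1 of the pools at 24 and 96 h put the adjusted p between 0.0503 and 0.0608. At 72 h the control libraries alone gave a log2 fold change of −0.92 (adjusted p = 0.0476) and the LKO libraries alone 0.17 (adjusted p = 0.818), while the fit of both did not call the gene (adjusted p = 0.444, and 0.0476 to 0.998 over the settings).

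*Abcb4* (chr5:8893717-8959231, plus strand) was called lower from 24 to 96 h and was still below its 0 h range at 96 h. The 4 control mice at 0 h had 296, 299, 329 and 362 CPM and the 4 LKO mice 341, 362, 303 and 333 CPM. From 12 to 96 h the control pools had 264, 136, 135, 148 and 184 CPM and the LKO pools 338, 118, 126, 171 and 204 CPM. Both genotypes lay below all 8 mice from 24 h on, and at 96 h they were at 57.3% and 60.9% of their 0 h means. Calls came at 24 h with a log2 fold change of −1.37 (adjusted p = 4.05e-05), −1.32 at 48 h (4.19e-05) and −1.06 at 72 h (0.000177), with SE between 0.16 and 0.17. The LKO libraries alone did not call it at 72 h (log2 fold change −0.99, adjusted p = 0.0801). At 96 h it was 1 of 18 genes called lower (log2 fold change −0.76, SE 0.16, adjusted p = 0.0411), and 18 of 28 other settings did not call it. Leaving out any control mouse, LKO mouse 1, 2 or 3, or 1 of the pools at 24, 72 and 96 h gave an adjusted p of 0.0524 to 0.514, with a log2 fold change of −0.80 to −0.73.

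*Abcc2* (chr19:43782192-43840740, plus strand) was within its 0 h range at 12 h and was lower at 24 and 48 h. Control mice had 456, 471, 354 and 444 CPM at 0 h and control pools 462, 191, 191, 162 and 188 CPM from 12 to 96 h. LKO mice had 426, 391, 522 and 321 CPM and LKO pools 493, 241, 227, 438 and 360.2 CPM. The control pools stayed below all 8 mice from 24 to 96 h, whereas the LKO pools were back among them at 72 and 96 h. It was called at 24 h (log2 fold change −0.996, SE 0.28, adjusted p = 0.0144) and at 48 h (log2 fold change −1.03, SE 0.28, adjusted p = 0.0189). The call at 24 h was lost without the control pool (log2 fold change −0.98, adjusted p = 0.132) and without the LKO pool (log2 fold change −1.01, adjusted p = 0.131). That at 48 h was likewise lost without the control pool (log2 fold change −1.07, adjusted p = 0.159) and the LKO pool (log2 fold change −0.99, adjusted p = 0.107). At 72 h it was not called (log2 fold change −0.59, SE 0.27, adjusted p = 0.149), but it was without the LKO pool (log2 fold change −1.31, adjusted p = 0.0152), and the LKO libraries alone gave 0.06.

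The other canalicular members showed no called change. *Abcg2* was between 64.2 and 109.9 CPM in the 10 pools, and every pool lay within the range of the 8 mice at 0 h (58.0 to 148 CPM). *Abcb1a* had 4.16, 2.37, 2.49 and 7.38 CPM in control and 2.71, 9.45, 7.15 and 11.7 CPM in LKO mice at 0 h. Its control pools had 12.3, 13.9, 10.4, 6.33 and 4.43 CPM from 12 to 96 h and its LKO pools 4.54, 10.1, 8.86, 13.0 and 8.09 CPM. The control pools at 12 and 24 h and the LKO pool at 72 h exceeded all 8 mice, but the mice themselves differed widely, and at 24 h the log2 fold change of 1.09 had an SE of 0.49 and an adjusted p of 0.107. Levels of *Abcb1a* are uncertain because reads that align equally well to its related neighbour *Abcb1b* are not counted, a loss that was not measured. In addition, 553 of its exon bases overlap a gene on the other strand in GENCODE vM21, and the counts disregard strand.

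*Abcc4* (chr14:118482692-118706219, minus strand) was the 1 member called higher after APAP, and its highest pool came at another time in each genotype. Control mice at 0 h had 2.73, 3.23, 1.20 and 1.98 CPM and LKO mice 2.85, 2.44, 2.56 and 2.57 CPM. In the control pools it was highest at 12 h, with 9.77, 7.06, 5.31, 2.47 and 1.83 CPM from 12 to 96 h, which is 427% of the 0 h mean at 12 h. In the LKO pools it was highest at 48 h, with 3.36, 5.12, 8.06, 4.83 and 1.80 CPM. All pools from 12 to 48 h and the LKO pool at 72 h lay above the 8 mice, and both genotypes were within their range at 96 h. The call at 12 h (log2 fold change 1.45, SE 0.36, adjusted p = 0.00527) was followed by calls at 24 h (log2 fold change 1.30, SE 0.35, adjusted p = 0.0115) and 48 h (log2 fold change 1.45, SE 0.35, adjusted p = 0.0093). At 12 h the call rested on the control pool, without which it was lost (log2 fold change 0.37, adjusted p = 0.589). At 24 h it was lost without the control pool (log2 fold change 1.01, adjusted p = 0.205) and without the LKO pool (log2 fold change 1.57, adjusted p = 0.0544), and at 48 h without the LKO pool (log2 fold change 1.09, adjusted p = 0.155).

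*Abcc3* (chr11:94343295-94392997, minus strand), the other basolateral exporter, had a wider range among mice at 0 h than among the pools. Control mice had 449.6, 323, 183 and 756 CPM and LKO mice 158, 499, 324 and 424 CPM. From 12 to 96 h the control pools had 416, 217, 216, 166 and 253 CPM and the LKO pools 393, 267, 243, 234 and 277 CPM, all within the range of the 8 mice. The lowest fold change was at 72 h (log2 fold change −0.97, SE 0.42, adjusted p = 0.122), and without LKO mouse 1, the lowest mouse, it passed the threshold (log2 fold change −1.09, adjusted p = 0.0498).

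Among the uptake transporters, *Slco1a1* (chr6:141907282-141946962, minus strand) had the lowest fold change of all members, at 24 h. Control mice at 0 h had 456, 513, 569.7 and 298 CPM, and control pools had 65.7, 29.8, 21.7, 202 and 278 CPM from 12 to 96 h. LKO mice had 336, 226, 449 and 294 CPM and LKO pools 38.9, 59.7, 143, 201 and 247 CPM. The lowest control pool was at 48 h, at 4.73% of the 0 h mean, and the lowest LKO pool at 12 h, at 11.9%. All pools from 12 to 72 h lay below the 8 mice. The call at 12 h (log2 fold change −2.88, SE 0.58, adjusted p = 0.0013) was followed by calls at 24 h (log2 fold change −3.15, SE 0.59, adjusted p = 0.00113) and 48 h (log2 fold change −2.26, SE 0.56, adjusted p = 0.011). Without the control pool at 48 h the last call was lost (log2 fold change −1.32, adjusted p = 0.136).

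*Slco1b2* (chr6:141629518-141686646, plus strand) was low at 12 h in both genotypes, and its LKO pool was back among the 8 mice at 72 h. Control mice had 1059, 914, 1238 and 1052 CPM and LKO mice 769.7, 943, 1190.0 and 912 CPM at 0 h. The control pools had 209.8, 218, 219, 581 and 1015 CPM from 12 to 96 h and the LKO pools 184, 424, 759.8, 1062 and 1066 CPM. Control pools were at 19.7% of the 0 h mean at 12 h and 20.6% at 48 h, and LKO pools at 19.3% and 79.7%. Pools lay below the 8 mice from 12 to 72 h in control and from 12 to 48 h in LKO. The call at 12 h (log2 fold change −2.33, SE 0.38, adjusted p = 0.00026) was followed by calls at 24 h (log2 fold change −1.72, SE 0.36, adjusted p = 0.00257) and 48 h (log2 fold change −1.14, SE 0.35, adjusted p = 0.0343). The control pool decided the later calls, as leaving it out gave log2 fold change −1.38, adjusted p = 0.0811 at 24 h and log2 fold change −0.48, adjusted p = 0.487 at 48 h. Without control mouse 1 the adjusted p at 48 h was 0.0501.

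*Slc10a1* (chr12:80953183-80968705, minus strand), the main bile salt importer, fell at 24 h. Control mice had 429.5, 391, 441 and 542 CPM at 0 h and control pools 322, 162, 176, 304 and 531 CPM from 12 to 96 h. LKO mice had 389, 533, 539.5 and 494 CPM and LKO pools 369, 262, 467, 531 and 625 CPM. Control pools were below the 8 mice from 12 to 72 h and LKO pools at 12 and 24 h, and the LKO pool at 96 h was above them. The change was called at 24 h (log2 fold change −1.19, SE 0.25, adjusted p = 0.00268), and not without the control pool (log2 fold change −1.04, adjusted p = 0.0731). At 48 h it was not called (log2 fold change −0.63, SE 0.25, adjusted p = 0.0841), but it was without the LKO pool (log2 fold change −1.26, adjusted p = 0.00756), without LKO mouse 1 (adjusted p = 0.0498) and by DESeq2 (0.0451).

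**Figure D2:**
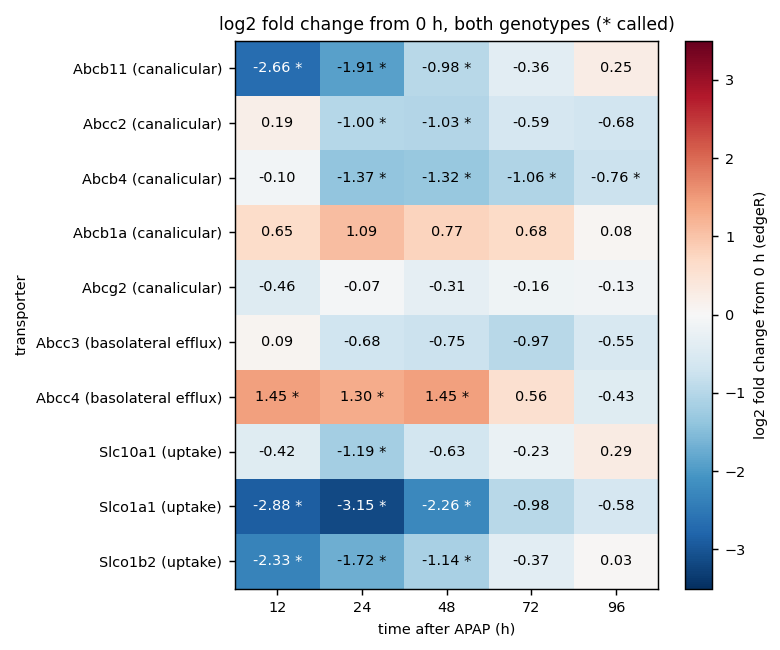
Fitted log2 fold change from 0 h (color and number, edgeR) of each transporter (rows) at 12 to 96 h after APAP (columns), over both genotypes of the LKO cohort, with an asterisk on called changes. *Abcc4* is the gene with called increases (1.45, 1.30 and 1.45 at 12, 24 and 48 h), and *Slco1a1* has the lowest value (−3.15 at 24 h).

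Markers of other cells were counted over the same times. At 12, 24, 48 and 72 h, 14.3, 11.7, 6.52 and 5.77% of all genes tested were called lower. The shares called higher were 16.7, 13.9, 9.89 and 11%. The summed level of 6 pericentral hepatocyte markers was 10430 to 13270 CPM in control and 7457 to 11330 CPM in LKO mice at 0 h. At 48 h, where *Slco1a1* was lowest in control, it was 851 CPM in the control pool and 3671 CPM in the LKO pool, and 4, 6 and 5 of the 6 genes were called lower at 12, 24 and 48 h. Of 5 periportal markers tested, 1, 3 and 1 were called lower at these times. Of 7 macrophage and monocyte markers, 2, 3, 4 and 4 were called higher and 1, 3, 0 and 0 lower at 12, 24, 48 and 72 h. Their sum at 72 h was 576 CPM in control, against 126 to 203 CPM in control mice at 0 h, and 574 CPM in LKO, against 132 to 315 CPM in LKO mice. Of 6 stellate cell markers, 0, 1, 4 and 5 were called higher and 2, 2, 0 and 0 lower at these times, with 72 h sums of 521 CPM in control, against 37.2 to 52.7 CPM at 0 h, and 218 CPM in LKO, against 33.6 to 44.8 CPM. Of 4 neutrophil markers found, 2, 3, 2 and 0 were called higher and 0 lower. Their sums at these times were 10.9, 11.1, 24.5 and 19.0 CPM in control, against 1.07 to 7.75 CPM at 0 h, and 9.97, 26.4, 6.25 and 3.82 CPM in LKO, against 0.872 to 5.11 CPM. The cholangiocyte sum was 171 CPM in the control and 36.3 CPM in the LKO pool at 12 h, and 216 and 87.5 CPM at 48 h. At 0 h it was 38.0 to 77.3 CPM in control and 40.0 to 67.7 CPM in LKO mice. Of its 5 genes tested, 1, 1, 2 and 0 were called higher and 0, 0, 1 and 1 lower at 12, 24, 48 and 72 h, with medians of −0.02, −0.83, −0.69 and −0.04. The endothelial sum was between 155 and 256 CPM in the cohort, and of its 6 genes 2, 1, 1 and 0 were called higher and 1, 2, 2 and 2 lower at these times. The part of these cells in the transporter changes was not tested.

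Between the genotypes after APAP, *Abcb11*, *Slc10a1*, *Slco1a1* and *Slco1b2* had the highest ratios of LKO to control pools at 24 and 48 h. In all, 7 and 8 of the 10 members were higher in LKO at these times. Each time point has 1 pool per genotype, so these ratios have no replicate check and no p-value. At 48 h the log2 ratio of LKO to control was 2.71 for *Slco1a1*, 1.79 for *Slco1b2*, 1.69 for *Abcb11* and 1.40 for *Slc10a1*. At 72 h it was 1.43 for *Abcc2*, 1.15 for *Abcb11* and 1.02 for *Abcb1a*. At 12 h it was negative for *Abcc4* (−1.51) and *Abcb1a* (−1.41), and between −0.76 and 0.36 for the other 8. For *Abcb4* it was between −0.21 and 0.36 at every time.

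At least 2-fold differences between the pools were counted against all genes. At 12 h, 0 members were higher and 2 lower in LKO, where 9.15% of all genes were higher and 12.3% lower by this measure. At 24 h, 1 was higher and 0 lower, against 3.41% and 4.93% of genes. At 48 h, 4 were higher and 0 lower, against 7.28% and 9.6%. At 72 h, 3 were higher and 0 lower, against 6.66% and 6.81%, and at 96 h 0 were either, against 6.68% and 4.55%. The median log2 ratio of the 10 genes was −0.22, 0.32, 0.51, 0.84 and 0.14 at 12, 24, 48, 72 and 96 h, where that of all genes lay between −0.02 and 0.02. The 16 pairs of 1 LKO and 1 control mouse at 0 h give a measure of the spread between single mice, which is not that of pools. At 12 h, 1 member lay above the range of these pairs (*Abcb4*) and 2 below it (*Abcc4* and *Abcb1a*), where 16.4% and 20.5% of all genes lay above and below their own. At 24 h, 4 were above and 1 below (*Abcc4*), against 10.9% of all genes on either side. At 48 h, 5 were above and 0 below, against 18.2% and 18%, and at 72 h 4 and 0, against 16.1% and 14.1%. At 96 h, 2 were above and 0 below, against 13.7% and 11.1%.

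**Figure D3:**
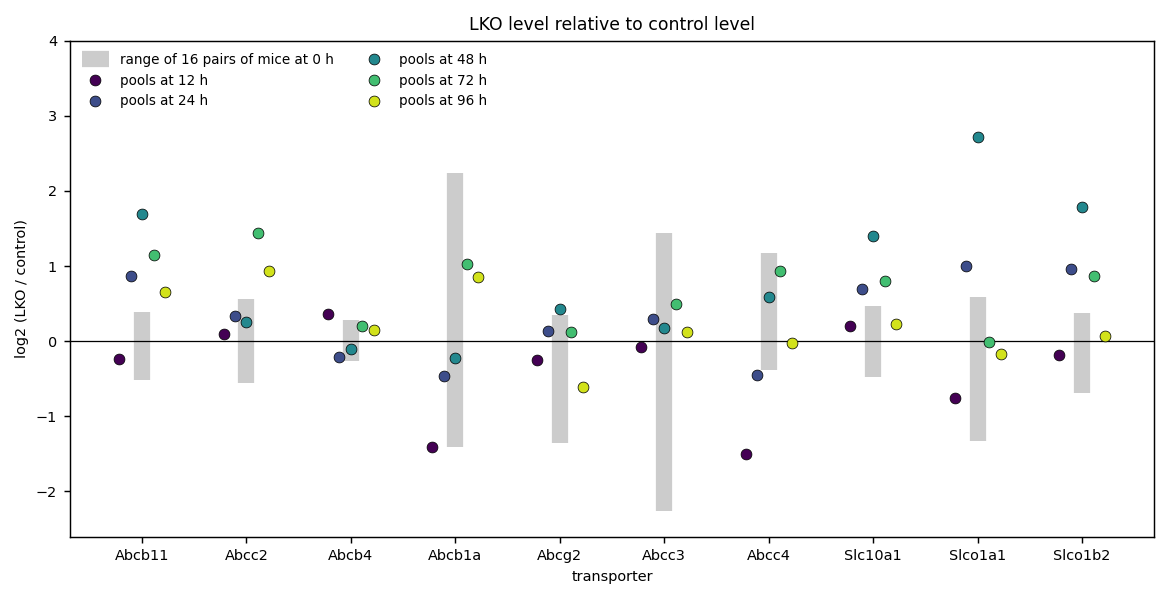
Log2 ratio of LKO to control for each transporter (horizontal axis), with points for the pools at 12 to 96 h and grey bars for the range over 16 pairs of single mice at 0 h. The points of *Abcb11*, *Slc10a1*, *Slco1a1* and *Slco1b2* at 48 h (1.69, 1.40, 2.71 and 1.79) lie above their bars, and the bars of *Abcb1a* and *Abcc3* are the widest.

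A genotype difference common to 12–96 h was tested over the 10 pools, with time as a block, and 0 of the 10 members were called, where 0.512% of all genes were. At an unadjusted p under 0.05 there were 4, all higher in LKO, where 7.63% of all genes were higher at that p. These were *Abcb11* (log2 fold change 0.81, SE 0.25, adjusted p = 0.143), *Slc10a1* (log2 fold change 0.64, SE 0.20, adjusted p = 0.148), *Abcc2* (log2 fold change 0.58, SE 0.21, adjusted p = 0.201) and *Slco1b2* (log2 fold change 0.68, SE 0.27, adjusted p = 0.233). *Slco1a1* had a wider error (log2 fold change 0.48, SE 0.41, adjusted p = 0.585). DESeq2 called *Abcb11* and *Slc10a1*, and 4.45% of all genes. With the pools at 72 and 96 h alone, *Abcc2* (log2 fold change 1.18, adjusted p = 0.00288) and *Abcb11* (log2 fold change 0.90, adjusted p = 0.0318) were called, as were 7.7% of all genes. That fit holds only 1 pool per genotype at each of these times, so its error is poorly known. With the pools at 12, 24 and 48 h alone, 0 members and 180 of 13307 genes were called. Over all settings the adjusted p ranged from 0.00288 to 0.772 for *Abcc2* and from 0.0174 to 0.779 for *Abcb11*.

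Whether the LKO difference after APAP departed from that at 0 h was tested in 1 fit of the 18 libraries. Of the 10 members 0 were called, as were 0% of all genes, while *Abcc2*, *Abcb11* and *Slco1b2* had an unadjusted p under 0.05, as did 9.43% of all genes. DESeq2 called 0 members and 39 of all 13855 genes. The highest values were log2 fold change 0.98, SE 0.54, adjusted p = 0.583 for *Slco1a1*, log2 fold change 0.85, SE 0.34, adjusted p = 0.48 for *Slco1b2* and log2 fold change 0.79, SE 0.31, adjusted p = 0.48 for *Abcb11*. The lowest was −0.97 for *Abcb1a*, with an SE of 0.61, and *Abcb4* had 0.01 with an SE of 0.18.

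Before APAP, LKO and control livers were compared without injury. Lifelong deletion and the greater share of diploid hepatocytes in LKO livers cannot be told apart in this comparison. No member was called among 4 mice per genotype by edgeR or DESeq2, where edgeR called 0 and DESeq2 3 of all 12426 genes. In edgeR, 0 members had an unadjusted p under 0.05, where 2.83% of all genes did. *Slco1a1* averaged 459 ± 117 CPM (SD, n = 4) without Cre and 326 ± 93.5 CPM (SD, n = 4) in LKO (log2 fold change −0.49, SE 0.24, adjusted p = 0.999). *Abcg2* was 113 ± 29.5 CPM (SD, n = 4) and 84.2 ± 18.1 CPM (SD, n = 4) (log2 fold change −0.42, SE 0.22, adjusted p = 0.999), and *Abcb1a* 4.10 ± 2.33 CPM (SD, n = 4) and 7.74 ± 3.83 CPM (SD, n = 4) (log2 fold change 0.92, SE 0.45, adjusted p = 0.999). The other 7 had log2 fold changes between −0.28 and 0.18. The groups overlapped for all 10 members, and 1.79% of all genes had groups that did not overlap.

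**Figure D4:**
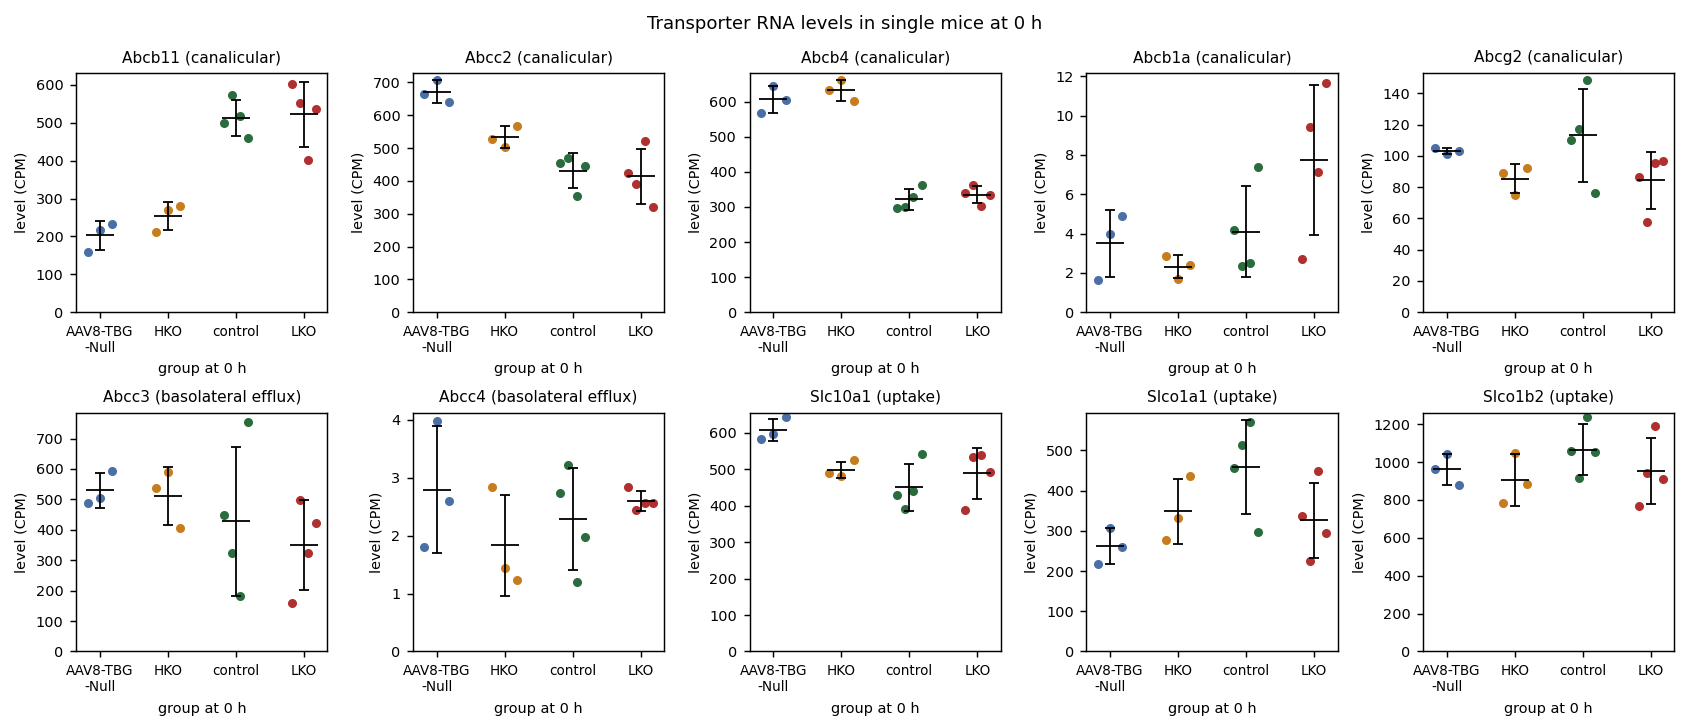
Level of each transporter in CPM (vertical axis, from 0) in single mice at 0 h, with points for mice and black bars for the mean ± SD of AAV8-TBG-Null (n = 3), HKO (n = 3), control (n = 4) and LKO (n = 4). The HKO cohort and the LKO cohort were scaled separately, and *Abcc2*, *Abcg2* and *Slc10a1* are lower in all 3 HKO mice than in all 3 AAV8-TBG-Null mice.

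In the HKO cohort, where both genes are deleted in adult hepatocytes, 0 members were called by edgeR or DESeq2. Of all 12397 genes tested, edgeR called 119 (0.96%) and DESeq2 331. At an unadjusted p under 0.05 there were 4, and 12.9% of all genes had such a p. *Abcc2* was 666, 709 and 642 CPM in AAV8-TBG-Null and 529, 503 and 568 CPM in HKO mice (log2 fold change −0.33, SE 0.10, adjusted p = 0.175). *Slc10a1* was 583, 597 and 643 CPM and 489.7, 481 and 524 CPM (log2 fold change −0.28, SE 0.09, adjusted p = 0.241), and *Abcg2* was 105, 101 and 103 CPM and 88.7, 75.0 and 92.3 CPM (log2 fold change −0.27, SE 0.10, adjusted p = 0.315). In these 3 genes all HKO mice lay below all AAV8-TBG-Null mice, and the groups did not overlap for 18% of all genes tested. *Slco1a1* overlapped between the groups, with 218, 307 and 259.9 CPM and 278, 332 and 436 CPM (log2 fold change 0.42, SE 0.18, adjusted p = 0.367). The difference between the LKO and the HKO effect called 0 members and 0% of all genes by edgeR, and 0 members and 21 of all 12945 genes by DESeq2. It had an unadjusted p under 0.05 for 4.47% of all genes and, among the members, for *Slco1a1* (log2 fold change −0.91, SE 0.35, adjusted p = 1) and *Abcb1a* (log2 fold change 1.505, SE 0.70, adjusted p = 1).

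The cohorts themselves differed at 0 h in 2 canalicular members. When the 14 single mice were scaled together, *Abcb11* was 159 to 283 CPM in the 6 mice of the HKO cohort and 388 to 582 CPM in the 8 mice of the LKO cohort. *Abcb4* went the other way, with 572 to 666 and 286 to 348 CPM. The other 8 members overlapped between the cohorts, and 9.07% of all genes tested did not. Virus, Cre line, genetic background (not stated for the HKO cohort) and sequencing of the cohorts cannot be told apart here. The share of reads on no feature also differed (12.6% to 14.7% in the HKO cohort and 8.47% to 10.8% in the mice of the LKO cohort).

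Other genes of bile transport were described by lists of 32 genes, of which 31 were tested after APAP. At 12, 24, 48, 72 and 96 h, 9, 10, 7, 6 and 0 of them were called lower and 2, 2, 3, 4 and 0 higher, where 14.3, 11.7, 6.52, 5.77 and 0.13% of all genes were lower and 16.7, 13.9, 9.89, 11 and 0.332% higher. Their median log2 fold changes were −0.49, −0.49, −0.52, −0.27 and −0.10, where those of all genes lay between −0.03 and 0.00. Among 7 other canalicular genes, *Abcg5* and *Abcg8*, which together export cholesterol, were lower at 12 h (−1.63, 0.00451 and −1.68, 0.0023, log2 fold change and adjusted p), and *Abcg8* was 216 CPM in control mice at 0 h and 31.1 CPM in the control pool at 48 h, with 219.9 and 114 CPM in LKO. *Atp8b1*, a phospholipid flippase of the canalicular membrane, was lower at 12 h (−0.81, 0.0309) and *Slc47a1*, which exports organic cations, at 24 h (−0.98, 0.0174). The spans of *Abcg5* and *Abcg8* overlap on opposite strands in GENCODE vM21. Whether their exons overlap, so that reads there are not assigned, was not tested.

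Other basolateral exporters went both ways. *Abcc1*, a glutathione conjugate exporter that is scarce in normal hepatocytes, was higher at 24, 48 and 72 h, with a log2 fold change of 2.15 at 72 h (adjusted p = 6.47e-05) from 1.49 CPM in control mice to 8.33 CPM in the control pool. *Abcc6* was lower from 12 to 72 h, with −2.50 at 24 h (adjusted p = 0.000133), and *Abcc5* was higher at 72 h (0.76, 0.0148). Of 4 other uptake genes, *Slc22a7*, which imports organic anions, was lower at 12 h (−2.54, 0.0201) and at 24 h, when *Slco2b1* was lower too (−1.27, 0.00122).

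Among 11 regulators, *Nr0b2* (SHP), a repressor that FXR induces, was lower at 12 h (−3.35, 0.000135) and at 48 h (−1.76, 0.0117), with 58.6 CPM in control mice at 0 h and 3.43 CPM in the control pool at 12 h. *Nr1i2* (PXR) and *Hnf4a* were lower at 24, 48 and 72 h, and the lowest values were −0.77 for *Nr1i2* at 24 h and −0.88 for *Hnf4a* at 48 h. *Nr5a2* was lower at 24 h (−0.95, 0.0127) and *Rxra* at 72 h (−0.73, 0.0239). *Nr1h4* and *Nfe2l2* were not called at any time, but their pools at 12 h went opposite ways in the genotypes. *Nr1h4* was 97.2 CPM in control mice at 0 h and 62.5 CPM in the control pool, which lay below all 8 mice, against 105 and 151 CPM in LKO, which lay above them. *Nfe2l2* was 58.7 and 76.96 CPM in control and 63.4 and 46.8 CPM in LKO, both pools within the range of the mice. Of 5 proteins that tie transporters to the membrane skeleton, *Ezr* and *Msn* were higher at 12, 48 and 72 h, with 1.60 for *Msn* at 72 h (adjusted p = 6.72e-06), and *Pdzk1* and *Rdx* were lower at 12 h (−1.23, 0.000206 and −0.78, 0.0025). In the genotype comparisons at 0 h and over 12–96 h, 0 of these lists' genes were called.

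Across the 18 libraries of the LKO cohort, the members called lower at 12 h were the most alike in pattern. Pearson's r of log2 CPM was 0.96 between *Abcb11* and *Slco1b2*, 0.93 between *Slco1a1* and *Slco1b2* and −0.69 between *Abcc4* and *Slco1a1*. These are descriptions over libraries that share time points and pools, with no test. Of the 13855 genes tested, those most like *Slco1a1* were *Sult2a8*, *Ugt2b1*, *Gm4956*, *Hibadh* and *Mettl7a1*, with r from 0.95 to 0.97. Those most like *Abcc4* were *Ctnnal1*, *Ubtd2*, *Vwa9*, *Wdr1* and *Fam84a*, with r from 0.83 to 0.86.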

How the data were processed

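Liver polyA RNA of 24 libraries was analysed. After trimming in Trimmomatic, the authors mapped reads to mm10 in STAR, which also counted them per gene, and the raw counts were deposited without normalization in 3 columns, of which the column that disregards strand was used. Uniquely mapped reads alone enter these deposited counts, and the annotation version is not given in the sources used here. The 4 summary entries per library (unmapped reads, 2.63% to 20.6%, and 3 others, at most 14.7% each) were left out of totals and tests.

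Samples were grouped by the genotype and time labels. Counts were filtered with filterByExpr, scaled by TMM and tested in edgeR 4.0.16 (R 4.3.3) by the quasi-likelihood F-test, 2-sided, with Benjamini-Hochberg adjustment over all genes of a comparison and calls at 0.05 and 1.5-fold. CPM of the HKO cohort and of the LKO cohort were scaled separately. Log2 ratios of pools use a prior count of 2. The spread is between these mice and pools only. The steps were tested on simulated data with 200 changed genes. Alternatives were DESeq2 1.42.0, RLE or library size scaling, other filters, a stranded column, other terms, genotypes or times in the fit, and leaving out each library. The members and lists were chosen with earlier results of these data known. The genes named are the 10 members, up to 4 called genes of each list and time, and the 5 genes most like *Abcc4* and *Slco1a1*. A result on 1 listed gene is not reported here. Positions are from GENCODE vM21 on GRCm38, the build named mm10.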

Additional observations from a re-analysis of the deposited data

How the results depend on the processing

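No member was called under any setting at 0 h in either cohort, in the change of the LKO difference after APAP, or where the effects of LKO and HKO were compared. A fit with the replicate number as a replicate block called 0 members in the 3 comparisons at 0 h. The labels do not say whether equal numbers pair mice. The correlation of same-numbered deviations was −0.38 to 0.22, which cannot decide this with so few mice. With the replicate block, 264 of all genes were called in HKO, against 119 without it. Over 12–96 h, where 0 were called, DESeq2 and the fit of 72 and 96 h alone called 2 each, and 4.45% and 7.7% of all genes. Leaving out 1 library gave 0 there, 3 to 4 members after 12 h (4 in the fit of all libraries), 3 to 7 after 24 h (7), 2 to 6 after 48 h (6), 1 to 2 after 72 h (1) and 0 to 1 after 96 h (1). With LKO libraries alone, the counts at 24, 48, 72 and 96 h were 4, 2, 0 and 0, and at 72 h the log2 fold change turned from −0.59 to 0.0596 for *Abcc2* and from −0.36 to 0.172 for *Abcb11*. With control libraries alone, 3 were called at 72 h and 0 at 96 h. At 96 h the count was also 0 with library size alone, with no filter beyond 1 count and with the stranded column. The cause was not tested.

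Over all genes, settings called 31 to 331 in HKO against 119 (DESeq2, 331), 0 to 999 over 12–96 h against 70 (DESeq2, 608, and 72 and 96 h alone, 999), and 7 to 338 at 96 h against 64 (DESeq2, 338). With LKO libraries alone the counts at 12, 24, 48 and 72 h were 1414, 1062, 280 and 375, against 4299, 3549, 2274 and 2327. They were 3253, 1748, 1881 and 1764 with control libraries alone and 2151, 1583, 507 and 514 without the control pool of that time, and 1177 at 24 h without the LKO pool. DESeq2 called 3 genes in LKO at 0 h, 39 in the change of the LKO difference and 21 between the cohorts' effects, against 0 each. Library size alone moved the median log2 fold change of all genes by 0.14, 0.20 and 0.11 at 24, 48 and 72 h and by 0.13 in LKO at 0 h. It moved the share of calls that were higher from 54.3% to 69.2% at 24 h, from 60.3% to 81.6% at 48 h, from 65.6% to 80.7% at 72 h, from 44.3% to 71.1% over 12–96 h and from 43.7% to 56.7% in HKO. Low counts limit *Abcc4* and *Abcb1a*, and 1 pool per genotype limits every time point.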
